A study of Mus musculus with 6 samples.

Results

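The TNF and TNF receptor superfamily was represented by 41 of the 17320 genes with a deposited value. These were the genes whose symbols begin with Tnfsf or Tnfrsf and a digit, the 7 TRAF genes, and 9 genes named singly (Tnf, Lta, Ltb, Ltbr, Fas, Cd27, Cd40, Tradd and Ripk1), of which Lta was not analysed here. They fell into 10 ligands, 21 receptors, 9 adaptors (the TRAF genes with Tradd and Ripk1) and 1 antisense RNA, Tnfsf13os. A mean of at least 1 normalized count over the 6 libraries, the filter for testing, was reached by 37 members, and the receptors Tnfrsf4, Tnfrsf9 and Tnfrsf13c and the antisense RNA were below it.

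Ligands of this superfamily are trimeric proteins, most of them held in the cell membrane until they are cut off by a protease. They bind receptors that carry cysteine-rich domains outside the cell. Inside the cell the receptors recruit TRAF proteins, which are ubiquitin ligases and scaffolds, or, through a death domain, TRADD, FADD and RIPK1. From there the signal runs to NF-kB and the MAP kinases or, under other conditions, to caspase-8 or to RIPK3 and MLKL. Mast cells are known for holding TNF ready in their granules and for making more of it after activation, and they display ligands such as OX40 ligand to T cells.

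Peritoneal cells of mice were grown with SCF, the ligand of KIT, and IL-3, and RNA was taken at day 9 from what the labels call peritoneal cell-derived mast cells (PCMC). There were 3 Mcemp1-/- libraries (replicates 4, 5 and 6) and 3 Wild type libraries (replicates 1, 2 and 3), all grown in the same way. The Mcemp1-/- mice carry a frameshift deletion in exon 1 made with CRISPR-Cas9 on the C57BL/6 background, an allele that is not limited to mast cells. Age is not given for these mice, nor whether each library is 1 mouse, so a p-value here measures the spread between these libraries, which may be technical.

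By correlation across genes, the 6 libraries did not fall into their groups. Mcemp1 had 0.201, 0.0849 and 4.23 normalized counts in Mcemp1-/- replicates 4, 5 and 6, against 9.80, 7.68 and 16.9 in Wild type replicates 1, 2 and 3. The library labelled Mcemp1-/- replicate 6 was correlated with Wild type replicates 1 and 3 at 0.988 across genes, and with Mcemp1-/- replicates 4 and 5 at 0.952 and 0.948. Mcemp1-/- replicates 4 and 5 correlated at 0.995 with each other. The sum of 10 macrophage and monocyte markers was 5.53, 4.27 and 254 in Mcemp1-/- replicates 4, 5 and 6, and 205 to 290 in Wild type, and that of 10 neutrophil and precursor markers was 478, 352 and 13089, against 8689 to 14404. Mast cell markers summed to 43646, 44867 and 24151 in the Mcemp1-/- replicates and to 23066 to 23934 in Wild type. Calls are therefore given with all 6 libraries and without replicate 6. The column headers end in a number, which is 4 on replicates 4 and 6 and 5 on replicates 5 and 2, and the sources used here do not say what it numbers. Wild type replicate 2 had 35265 normalized counts of small RNAs, against 24.8 to 29.1 in the other 5 libraries. Sex was read from Xist, which had 1481 normalized counts in Mcemp1-/- replicate 6 and 1297 in Wild type replicate 3. It had 0.0537 to 0.341 in the other libraries, so that replicate 6 was the only Mcemp1-/- library read as female. The part of sex in the difference between replicate 6 and replicates 4 and 5 was not tested.

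With all 6 libraries, none of the 37 tested members was called at an adjusted p under 0.05 (limma, Benjamini-Hochberg over 13413 genes, two-sided), where 0.0596% of all genes were called lower and 0.0149% higher. At an unadjusted p under 0.05 there were 6 lower and 7 higher members, against a background of 13.8% lower and 11.6% higher. All 3 Mcemp1-/- libraries lay below all 3 Wild type libraries for 5 members and above them for 6, beside 14.8% of all genes in each direction. Without replicate 6, 15 members were called lower and 6 higher, beside 22.5% and 19.5% of all genes. The median log2 fold change of Mcemp1-/- over Wild type was 0.12 for ligands, -1.06 for receptors and 0.01 for adaptors, against -0.01 for all genes. For the receptors, the median log2 difference from Wild type was -1.37 in replicates 4 and 5 and -0.05 in replicate 6. Over all alternatives, the highest adjusted p of the 26 members given library by library below lay between 0.449 and 0.995. Fold changes here are on the scale of log2(value + 0.479), which understates the change of low genes.

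**Figure D1:**
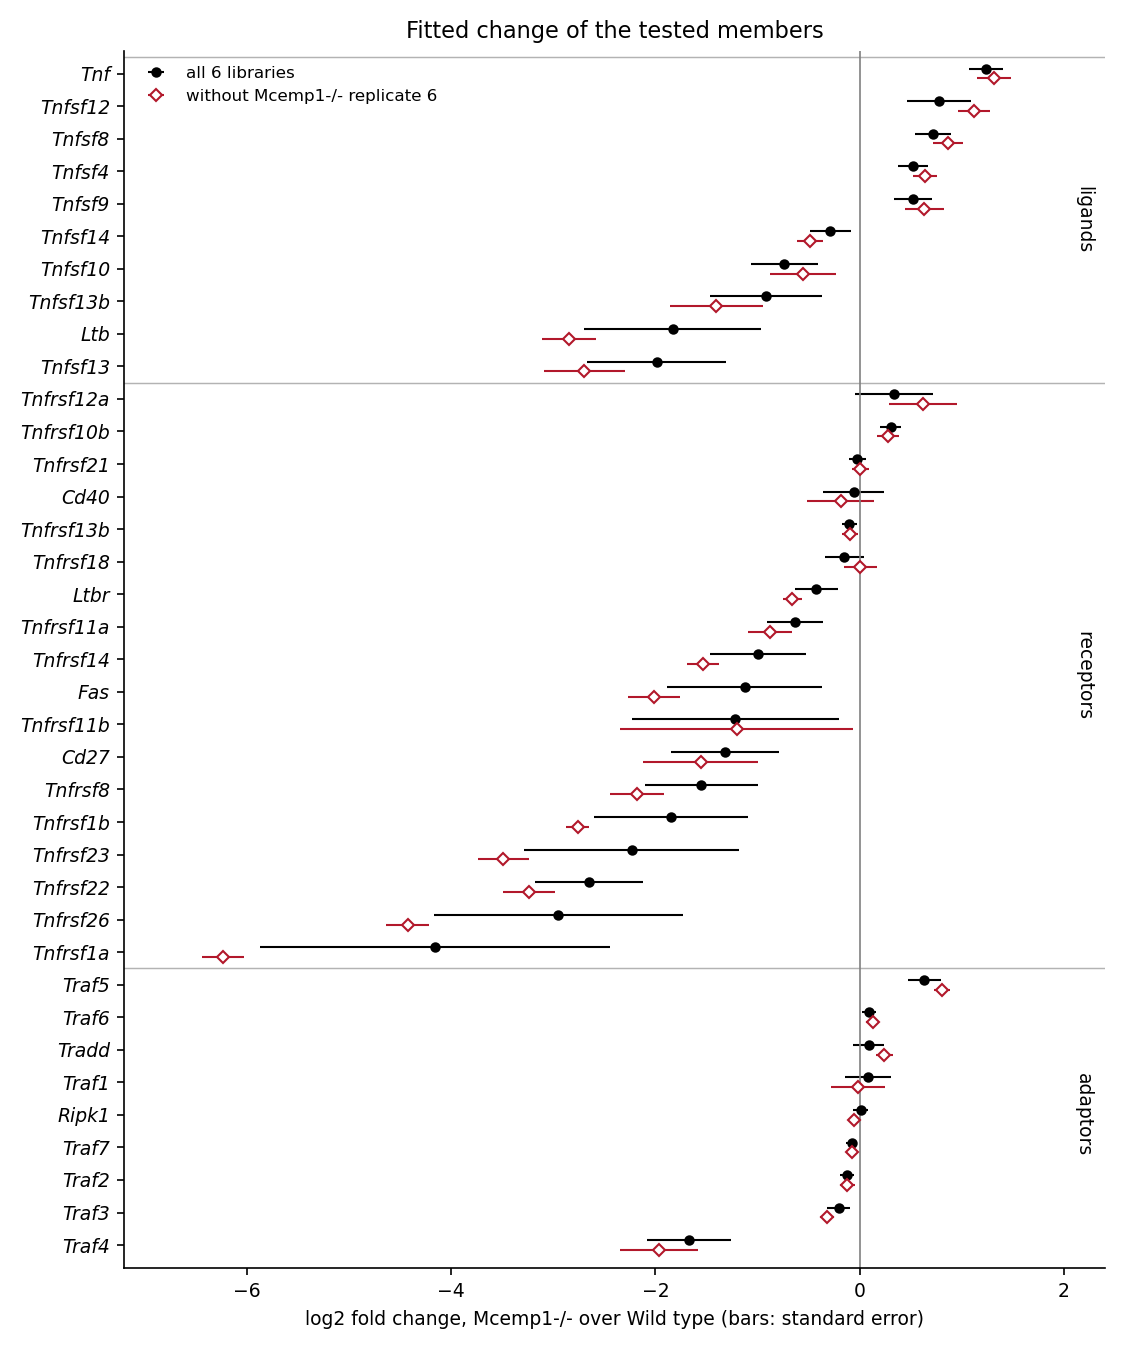
Log2 fold change of Mcemp1-/- over Wild type (horizontal axis) for the 37 tested members, grouped as ligands, receptors and adaptors. Filled circles are the fit to all 6 libraries, open diamonds the fit without Mcemp1-/- replicate 6, and bars are standard errors. The ligands lie on both sides of 0, and the receptors reach -4.15 with all libraries and -6.24 without replicate 6 (Tnfrsf1a). With all libraries, 7 of 9 adaptors lie within 0.25 of 0, beside 7247 of all 13413 tested genes.

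Among the ligands, 0 of 10 were called with all 6 libraries, and without replicate 6 there were 5 called higher and 3 lower, beside 19.5% and 22.5% of all genes. Tnf, Tnfsf4, Tnfsf8 and Tnfsf9 had higher values in every Mcemp1-/- library than in any Wild type library, and Ltb and Tnfsf13 were under 1 normalized count in replicates 4 and 5. Tnf had 33.7, 23.2 and 23.4 normalized counts in Mcemp1-/- replicates 4, 5 and 6, against 11.9, 10.3 and 10.7 in Wild type. All 3 Mcemp1-/- libraries, replicate 6 included, lay above all 3 Wild type libraries. The log2 fold change was 1.23 ± 0.17 (SE) with a limma adjusted p of 0.0998, the lowest of any member. It was 1.32 ± 0.17 with an adjusted p of 0.0018 without replicate 6, and its adjusted p ranged from 0.0018 to 0.449 over all alternatives, while the fold change stayed between 1.06 and 1.33.

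Tnfsf4, which encodes OX40 ligand, had 42.6, 38.7 and 31.7 normalized counts in Mcemp1-/-, against 22.3, 27.8 and 27.9 in Wild type. Tnfsf8, the CD30 ligand, had 15.4, 12.7 and 10.2 in Mcemp1-/-, against 6.86, 8.54 and 7.12 in Wild type. Tnfsf9, the 4-1BB ligand, had 3.54, 3.14 and 2.52, against 1.75, 2.15 and 2.051 in Wild type. In each of the 3 genes replicate 6 was the lowest of the Mcemp1-/- libraries and still above every Wild type library. Their log2 fold changes were 0.52 ± 0.15, 0.72 ± 0.18 and 0.52 ± 0.19, with limma adjusted p-values of 0.15, 0.15 and 0.17. Without replicate 6 they were 0.64 ± 0.12, 0.86 ± 0.15 and 0.63 ± 0.19, with limma adjusted p-values of 0.0071, 0.0050 and 0.039. The receptors for these ligands were low, with Tnfrsf4, Tnfrsf8 and Tnfrsf9 all under 3 normalized counts in every library. Of 10 mast cell markers, 6 were higher and 1 lower in all 3 Mcemp1-/- libraries, beside 14.8% of all genes in each direction. Their sum was 43646, 44867 and 24151 in Mcemp1-/-, against 23066 to 23934 in Wild type, so that replicate 6 lay close to Wild type. Their part in the ligand values was not tested.

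Tnfsf12 and Tnfsf13, which encode TWEAK and APRIL, lie end to end on chromosome 11 (mm10 chr11:69682846-69695849) and could not be read apart with certainty. Tnfsf12 had 20.7, 17.2 and 9.01 normalized counts in Mcemp1-/-, against 7.26, 9.94 and 8.29 in Wild type, and Tnfsf13 had 0.943, 0.295 and 4.09, against 6.73, 4.12 and 9.00. Tnfsf12 was high in replicates 4 and 5 alone, the same libraries in which Tnfsf13 was lowest, with log2 fold changes of 0.78 ± 0.32 and -1.99 ± 0.68 (limma adjusted p 0.20 and 0.17). Without replicate 6 these were 1.12 ± 0.16 and -2.70 ± 0.40 (limma adjusted p 0.0026 and 0.0030). The Tnfsf13 groups were separated only narrowly, by 4.09 in replicate 6 against 4.12 in Wild type replicate 2. A read-through gene, Tnfsfm13, joins both, and 46.8% of the distinct 50-base stretches of Tnfsf12 and 57.3% of those of Tnfsf13 also occur in it. Tnfsfm13 had 1.87, 1.48 and 17.2 in Mcemp1-/-, against 16.97, 8.12 and 12.3 in Wild type. Tnfsf12 and Tnfsfm13 summed to 22.6, 18.7 and 26.2 in Mcemp1-/- and to 24.2, 18.1 and 20.6 in Wild type, which overlapped. The sum of Tnfsf13 and Tnfsfm13 was 2.82, 1.78 and 21.3 in Mcemp1-/-, against 23.7, 12.2 and 21.3 in Wild type, so that it was low in replicates 4 and 5 and within the Wild type range in replicate 6. Summed with the read-through gene, Tnfsf12 was thus no longer high in replicates 4 and 5, and Tnfsf13 was low in those libraries only, with groups that overlapped.

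Ltb encodes lymphotoxin beta, which holds lymphotoxin at the cell surface. It had 0.669, 0.934 and 10.1 normalized counts in Mcemp1-/-, against 6.40, 8.97 and 11.4 in Wild type. Replicates 4 and 5 were low and replicate 6 lay within the Wild type range, so that the log2 fold change was -1.83 ± 0.86 with all libraries and -2.85 ± 0.26 without replicate 6 (limma adjusted p 0.23 and 0.00055). Tnfsf14, or LIGHT, had 9.31, 7.26 and 12.7 in Mcemp1-/-, against 11.9, 11.9 and 11.3 in Wild type, and was called lower without replicate 6 alone. Tnfsf10, or TRAIL, had 8.48, 10.01 and 6.21 in Mcemp1-/-, against 8.77, 14.8 and 20.1 in Wild type, and its groups overlapped (log2 fold change -0.74 ± 0.33, limma adjusted p 0.21, and -0.56 ± 0.32 with 0.22 without replicate 6). Tnfsf13b, which encodes the B cell factor BAFF, was just inside the filter, with 0.127 to 1.45 in Mcemp1-/- and 0.877 to 2.68 in Wild type.

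**Figure D2:**
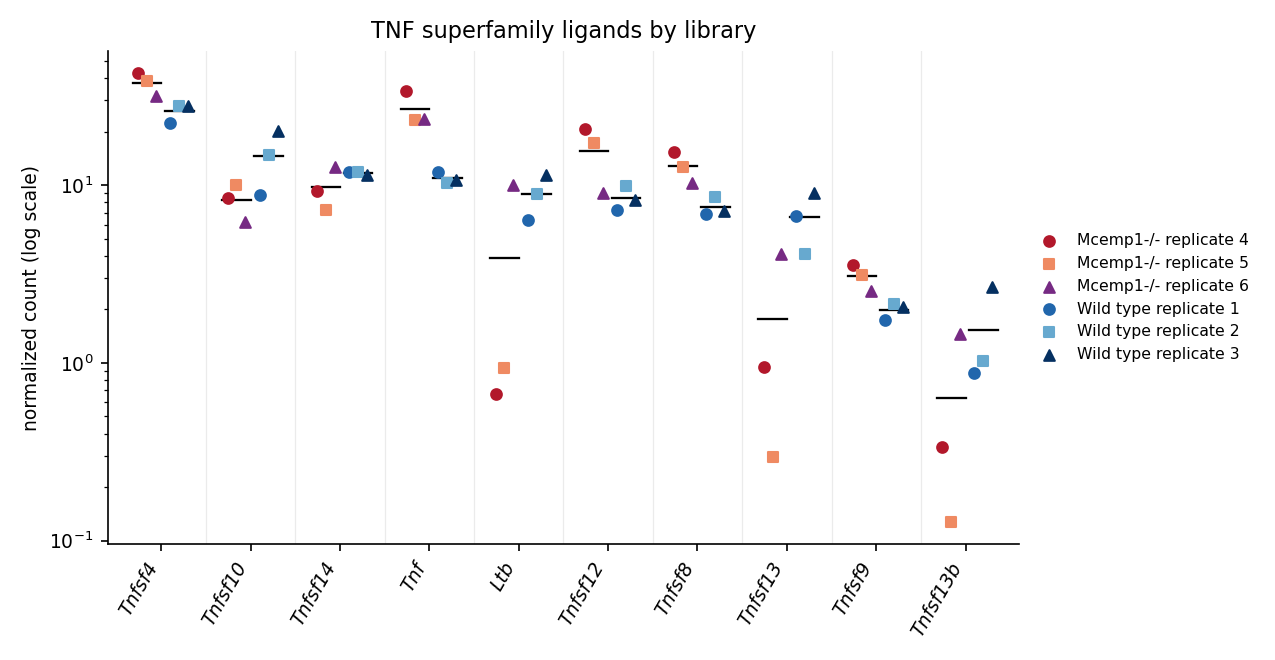
Normalized counts (log scale) of the 10 ligands in each library, ordered by the Wild type mean, with the 3 Mcemp1-/- libraries left of the 3 Wild type libraries and group means as black lines. Tnf, Tnfsf4, Tnfsf8 and Tnfsf9 lie above Wild type in all 3 Mcemp1-/- libraries, whereas Ltb is under 1 in replicates 4 and 5 and 10.1 in replicate 6.

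Tnf and Ltb are neighbors on chromosome 17, with 3.06 kb between the ends of the genes, and in replicates 4 and 5 they differed from Wild type in opposite directions. Their promoters are shown for that reason, beside those of Tnfrsf1a, the receptor with the largest difference, and of Tnfrsf8, a receptor lower in all 3 Mcemp1-/- libraries. The sequences are from RefSeq on GRCm38.p6, the assembly of mm10. They run from 250 bases before the RefSeq start to 50 after it, in the 5′ to 3′ direction of the gene. They cover chr17:35201958-35202257 (minus strand), chr17:35194257-35194556 (plus), chr6:125349473-125349772 (plus) and chr4:145315115-145315414 (minus). In GENCODE vM21, Ltb starts at chr17:35194439 and Tnfrsf1a at chr6:125349362, so the Tnfrsf1a window lies wholly inside the gene as annotated there. Capitals mark a match on either strand to the NF-kB consensus or to an AP-1 motif, TGANTCA.
Tnf: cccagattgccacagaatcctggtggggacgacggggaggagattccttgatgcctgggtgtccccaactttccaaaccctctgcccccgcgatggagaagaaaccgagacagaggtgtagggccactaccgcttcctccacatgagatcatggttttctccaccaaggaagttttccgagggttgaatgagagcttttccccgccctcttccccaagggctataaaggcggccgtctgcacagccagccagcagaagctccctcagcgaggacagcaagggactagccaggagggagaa
Ltb: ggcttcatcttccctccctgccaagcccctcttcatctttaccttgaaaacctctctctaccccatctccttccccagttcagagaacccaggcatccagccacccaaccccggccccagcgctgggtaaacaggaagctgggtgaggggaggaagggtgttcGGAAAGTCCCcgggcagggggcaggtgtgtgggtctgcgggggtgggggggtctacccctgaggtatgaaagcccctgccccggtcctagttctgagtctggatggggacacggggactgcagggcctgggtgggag
Tnfrsf1a: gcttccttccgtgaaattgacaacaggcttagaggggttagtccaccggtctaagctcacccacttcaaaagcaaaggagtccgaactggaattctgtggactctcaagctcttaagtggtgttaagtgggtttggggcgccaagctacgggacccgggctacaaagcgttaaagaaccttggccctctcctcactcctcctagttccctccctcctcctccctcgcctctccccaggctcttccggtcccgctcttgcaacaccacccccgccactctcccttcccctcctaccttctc
Tnfrsf8: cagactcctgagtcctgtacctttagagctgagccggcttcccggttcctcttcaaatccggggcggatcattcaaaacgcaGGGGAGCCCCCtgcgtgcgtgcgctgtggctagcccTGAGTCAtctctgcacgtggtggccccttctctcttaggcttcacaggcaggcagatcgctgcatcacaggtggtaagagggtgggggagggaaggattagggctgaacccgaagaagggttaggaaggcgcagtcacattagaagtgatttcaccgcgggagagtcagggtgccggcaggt

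The 31 members with a promoter entry had 34 promoters. The NF-kB consensus was found in 4 of these 34, those of Ltb, Tnfrsf8, Tnfrsf9 and Traf3, and in 8.46% of all 32851 promoters of this length. In Ltb the match lay 87 bases before the RefSeq start, which is not the GENCODE vM21 start. In Tnfrsf8 it began 168 bases before the RefSeq start, where 2 matches overlap. The AP-1 motif stood in 7 of the 34 promoters and in 7.81% of all promoters. The 7 belonged to 6 members, which were Fas, Tnfrsf8, Tnfrsf9, Tnfsf13, Tnfsf13b and Tnfsf14. In Tnfrsf8 it lay 132 bases before the start, apart from the other motif. The windows of Tnf and Tnfrsf1a held neither, and a match describes the letters in this window and not a bound factor.

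The receptors had the lowest median of the 3 classes, and Tnfrsf1a, Tnfrsf1b, Tnfrsf26 and Tnfrsf23 had replicate 6 near Wild type and replicates 4 and 5 far below it. Tnfrsf1a encodes TNFR1, the death domain receptor through which most cells respond to TNF. It had 0.402, 0.127 and 55.1 normalized counts in Mcemp1-/- replicates 4, 5 and 6, against 61.9, 46.6 and 56.6 in Wild type. The message was thus close to the lowest value of a library (0.0403 to 0.0669) in replicates 4 and 5, and in replicate 6 it was inside the Wild type range. Tnfrsf1b, the gene of TNFR2, which has no death domain and signals through TRAF2, had 16.1, 14.5 and 105 in Mcemp1-/-, against 114, 92.9 and 115 in Wild type. It was also low in replicates 4 and 5 only, yet remained at 0.143 times the Wild type mean there, where Tnfrsf1a was at 0.00481 times.

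The log2 fold change with all libraries was -4.15 ± 1.71 for Tnfrsf1a and -1.85 ± 0.75 for Tnfrsf1b (limma adjusted p 0.20 for both). Without replicate 6 it was -6.24 ± 0.20 for Tnfrsf1a and -2.76 ± 0.11 for Tnfrsf1b, with limma adjusted p-values of 2.2e-05 and 4.5e-05. With replicate 6 as the only Mcemp1-/- library it was 0.012 and -0.026, and the limma adjusted p ran up to 0.987 and 0.964 over the alternatives. Per kilobase of exon, the level of Tnfrsf1b over that of Tnfrsf1a was 27.3, 77.1 and 1.29 in Mcemp1-/- replicates 4, 5 and 6, and 1.25, 1.35 and 1.37 in Wild type. The 2 receptors were therefore near parity in 4 libraries, and Tnfrsf1b was the more abundant by far in replicates 4 and 5.

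Macrophages express both TNF receptors, and the macrophage and monocyte markers moved with them. Of the 10 markers, 8 of which passed the filter, 9 were lower in replicates 4 and 5 than in every Wild type library. The share of all genes lower in this way was not counted. Without replicate 6, 22.5% of all genes were called lower. Csf1r, the receptor that defines macrophages and monocytes, had 0.469, 0.375 and 80.5 normalized counts in Mcemp1-/-, against 73.2, 90.4 and 80.6 in Wild type. C1qa, C1qb and C1qc were each at the lowest value of the library in replicate 4 or 5. Neutrophil precursor markers moved likewise (9 of 10, all but Ctsg), with Mpo at 1.004, 1.06 and 5753 in Mcemp1-/-, against 6685, 5105 and 6251 in Wild type. In bulk RNA, fewer cells of a type and less RNA per cell cannot be told apart, and the part of these cells in the receptor values was not tested.

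Tnfrsf26, Tnfrsf22 and Tnfrsf23 lie side by side on chromosome 7 (mm10 chr7:143607659-143685872). Tnfrsf22 and Tnfrsf23 encode mouse decoy receptors, which bind TRAIL and carry no death domain. Tnfrsf26 had 1.68, 1.21 and 40.3 normalized counts in Mcemp1-/-, against 38.9, 33.2 and 51.2 in Wild type, the same pattern as Tnfrsf1a. Its log2 fold change was -2.95 ± 1.22 with all libraries and -4.43 ± 0.21 without replicate 6 (limma adjusted p 0.20 and 6.4e-05). Tnfrsf22 had 0.418, 1.02 and 3.43, against 12.0, 9.43 and 10.02 in Wild type, and here replicate 6 was also below every Wild type library. Its log2 fold change was -2.65 ± 0.53 with all libraries and -3.24 ± 0.26 without replicate 6 (limma adjusted p 0.15 and 0.00031), and -1.48 with replicate 6 as the only Mcemp1-/- library. Tnfrsf22 and Tnfrsf23 share 719 distinct 50-base stretches, 17.3% and 18.0% of each gene, so reads may have been split between them. Summed, they had 0.753, 1.35 and 14.1 in Mcemp1-/-, against 19.4, 16.9 and 21.8 in Wild type, and the groups still did not overlap. With all other genes counted, 27.4% of the stretches of Tnfrsf22 were shared, so this sum does not cover all of the sharing.

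Tnfrsf14, or HVEM, and Ltbr, which share LIGHT as a ligand, were both reduced in the same pair of libraries. Tnfrsf14 had 5.50, 5.35 and 17.8 normalized counts in Mcemp1-/-, against 17.3, 13.8 and 19.3 in Wild type. Ltbr, the lymphotoxin beta receptor, had 22.1, 19.2 and 33.8 in Mcemp1-/-, against 33.9, 33.6 and 31.1 in Wild type. Ltbr was thus partly retained in replicates 4 and 5, although it lies between Cd27 and Tnfrsf1a on chromosome 6, within the same 130 kb. The log2 fold changes without replicate 6 were -1.54 ± 0.16 and -0.66 ± 0.09 (limma adjusted p 0.00074 and 0.0023), and with all libraries the adjusted p-values were 0.23 and 0.24.

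Tnfrsf8 encodes CD30 and was low throughout, with 0.134, 0.0849 and 1.69 normalized counts in Mcemp1-/-, against 2.43, 1.88 and 2.28 in Wild type. It lies next to Tnfrsf1b on chromosome 4, 20.3 kb away, and all 3 Mcemp1-/- libraries were below Wild type (log2 fold change -1.55 ± 0.55, limma adjusted p 0.17, and -2.18 ± 0.27 with 0.0015 without replicate 6). Fas, the receptor of FAS ligand, was chosen for mention after its values were seen and had 0.736, 0.510 and 6.45 in Mcemp1-/-, against 3.10, 4.03 and 4.90 in Wild type. Replicate 6 was the highest of all 6 libraries here, and Fas was called lower only without it. Tnfrsf11a, which encodes RANK, and Tnfrsf23 were the remaining receptors among the 10 called lower without replicate 6, where 0 of 18 were called higher, beside 22.5% and 19.5% of all genes.

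Several receptors were alike in both groups. Tnfrsf21, the death receptor DR6, had 96.1, 83.2 and 84.2 normalized counts in Mcemp1-/-, against 84.3, 89.0 and 94.4 in Wild type. Tnfrsf13b encodes TACI, a receptor for APRIL and BAFF, and had 70.6, 64.4 and 67.002 in Mcemp1-/-, against 72.4, 67.3 and 77.1 in Wild type. The 95% intervals of the log2 fold change were -0.23 to 0.18 for Tnfrsf21 and -0.28 to 0.08 for Tnfrsf13b. TACI is best known on B cells, whose 6 markers summed to 52.0 to 80.5 in Mcemp1-/- and 60.5 to 64.3 in Wild type. Tnfrsf10b, the mouse TRAIL receptor with a death domain, was slightly higher, with 10.9, 9.87 and 11.1 in Mcemp1-/-, against 8.60, 8.18 and 8.76 in Wild type. Its groups did not overlap, and the log2 fold change was 0.30 ± 0.10 (limma adjusted p 0.17, and 0.088 without replicate 6).

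The other receptors were low. Cd40, Tnfrsf18, Tnfrsf12a and Cd27 had means of 0.365 to 4.002 in Mcemp1-/- and 1.79 to 3.10 in Wild type, their groups overlapped, and none was called with or without replicate 6. Tnfrsf11b, the decoy receptor osteoprotegerin, was at the lowest value of the library in 5 of 6 libraries and at 6.07 in Wild type replicate 2. Dcn, a fibroblast gene, had 51.6 normalized counts in that library and 0.0425 to 0.134 in the other 5. The Wild type mean of Tnfrsf11b, 2.06, therefore came from 1 library, as did its passing the filter.

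**Figure D3:**
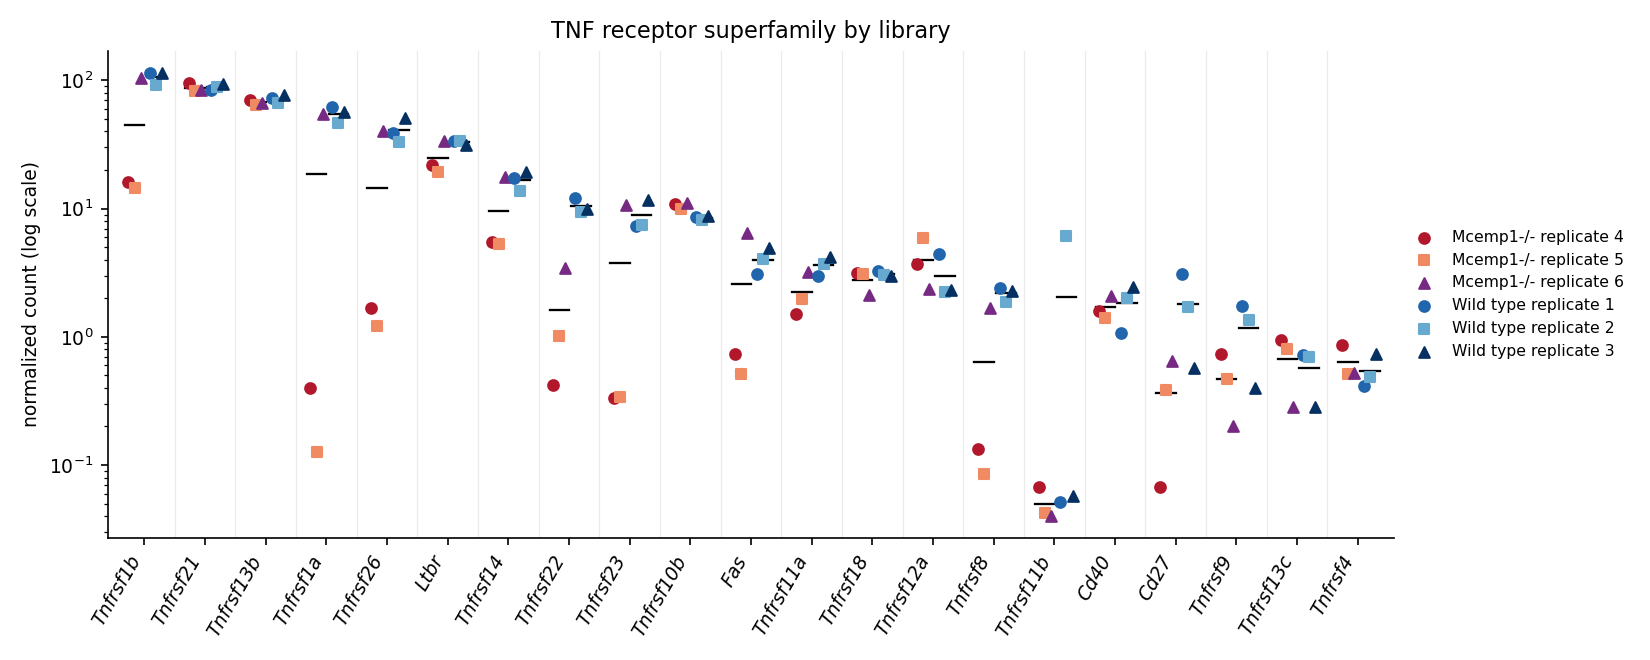
Normalized counts (log scale) of the 21 receptors in each library, ordered by the Wild type mean, with the 3 Mcemp1-/- libraries left of the 3 Wild type libraries and group means as black lines. Tnfrsf1a, Tnfrsf1b, Tnfrsf26 and Tnfrsf23 separate Mcemp1-/- replicates 4 and 5 from the other 4 libraries, whereas Tnfrsf21 and Tnfrsf13b are level in all 6.

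Of the 9 adaptors, 7 had a log2 fold change within 0.25 of 0 with all libraries, beside 7247 of all 13413 tested genes. Traf4 and Traf5 did not. None was called with all libraries, and without replicate 6 there were 2 called lower (Traf3 and Traf4) and 1 higher (Traf5), beside 22.5% and 19.5% of all genes. Traf5, an adaptor of CD27, CD40 and OX40, had 25.99, 26.5 and 18.2 normalized counts in Mcemp1-/-, against 14.998, 14.3 and 15.1 in Wild type. All Mcemp1-/- libraries were above Wild type, with replicate 6 nearest to it (log2 fold change 0.63 ± 0.16, limma adjusted p 0.15). Traf4, which has roles in epithelia and development beside signaling, had 0.201, 0.934 and 1.33 in Mcemp1-/-, against 3.51, 4.24 and 2.51 in Wild type. Its groups did not overlap either, and the log2 fold change was -1.67 ± 0.41 (limma adjusted p 0.15), with -1.08 for replicate 6 alone. Without replicate 6, Traf5 was called higher and Traf4 lower, with limma adjusted p-values of 0.00061 and 0.0088, and over all alternatives these reached 0.639 and 0.567.

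The members lower in all 3 Mcemp1-/- libraries were Tnfrsf22, Tnfrsf8, Traf4, Traf2 and, by a narrow margin, Tnfsf13. Of 8 eosinophil markers, 7 of which passed the filter, 6 were also lower in all 3, beside 14.8% of all tested genes. In replicates 4 and 5, 1 of the 8 was higher than in every Wild type library. Of 10 macrophage and monocyte markers, 4 were lower and 0 higher in all 3 Mcemp1-/- libraries. The sum of the 8 eosinophil markers was 10.6 to 12.8 in Mcemp1-/- and 52.2 to 140 in Wild type. Prg2, the major basic protein gene, had 0.134, 0.255 and 0.0806 in Mcemp1-/-, against 18.0, 33.5 and 55.9 in Wild type. The part of eosinophils in the values of these 5 members was not tested.

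The adaptors used by TNFR1 and TNFR2 differed little. Traf2, which both receptors use, had 26.5, 28.6 and 27.1 normalized counts in Mcemp1-/-, against 29.96, 30.4 and 29.6 in Wild type, a small difference without overlap (log2 fold change -0.13 ± 0.07, limma adjusted p 0.27, and -0.12 ± 0.07 with 0.22 without replicate 6). Ripk1, the kinase that joins TNFR1 to NF-kB or to cell death, had 95.01, 89.3 and 105 in Mcemp1-/-, against 97.8, 94.0 and 95.3 in Wild type. Tradd, the first adaptor on TNFR1, had 17.7, 16.6 and 12.3, against 14.7, 14.0 and 14.6. Both overlapped between the groups, with 95% intervals of the log2 fold change of -0.18 to 0.19 for Ripk1 and -0.28 to 0.46 for Tradd.

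Traf3, a brake on the noncanonical NF-kB route, had 54.2, 55.3 and 69.4 normalized counts in Mcemp1-/-, against 68.5, 65.0 and 72.1 in Wild type. It was low in replicates 4 and 5 alone and was called lower without replicate 6 (log2 fold change -0.32 ± 0.07, limma adjusted p 0.011, up to 0.957 over the alternatives). Traf6, the adaptor of CD40 and RANK and of the IL-1 and Toll-like receptors, had 91.1, 83.7 and 80.5 in Mcemp1-/-, against 82.1, 77.3 and 80.0 in Wild type. Traf7, the most divergent TRAF, had 145, 155 and 149, against 156, 154 and 164. The 95% intervals were -0.08 to 0.26 for Traf6 and -0.22 to 0.06 for Traf7, and Traf1 was low in both groups, at 1.14 to 1.69 in Mcemp1-/- and 1.09 to 1.65 in Wild type.

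**Figure D4:**
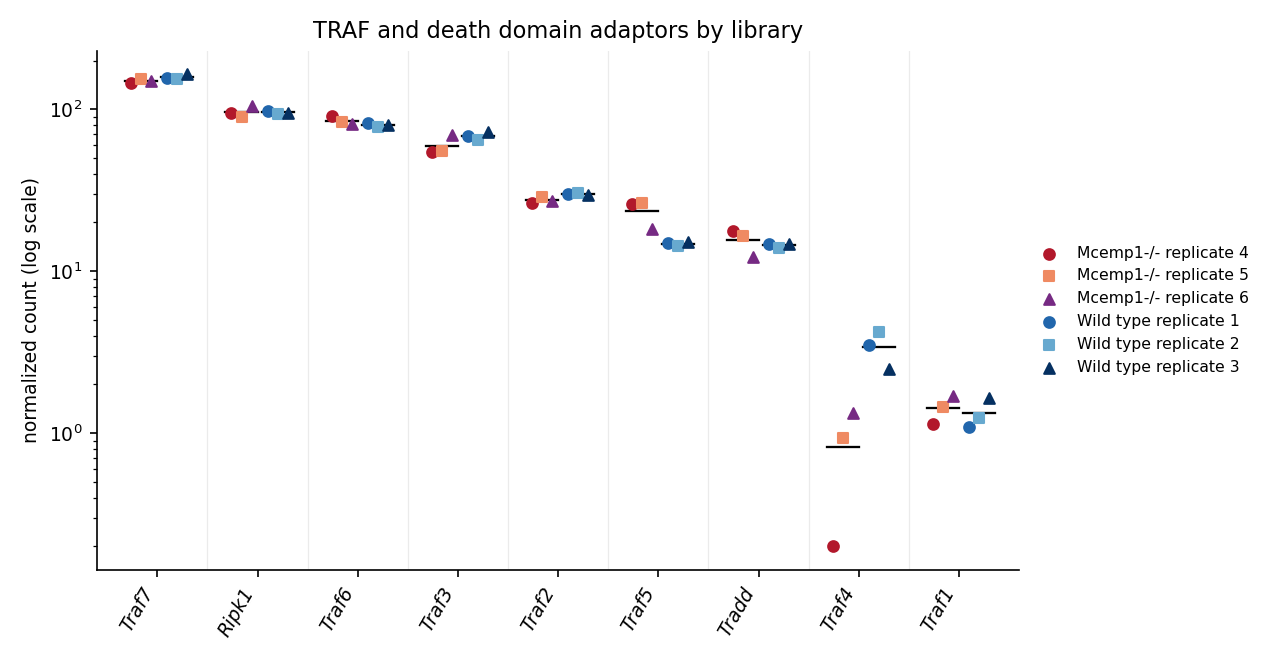
Normalized counts (log scale) of the 9 adaptors in each library, ordered by the Wild type mean, with the 3 Mcemp1-/- libraries left of the 3 Wild type libraries and group means as black lines. Traf5 is higher and Traf4 lower in all 3 Mcemp1-/- libraries, and Traf7, Ripk1 and Traf6 are level at 77.3 to 164.

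Per kilobase of exon, the most abundant members in Mcemp1-/- were Traf7 (25.5), Tnfrsf13b (23.7), Tnfrsf21 (21.4) and Tnfsf4 (20.5), by the group mean. In Wild type they were Tnfrsf1b (28.0), Traf7 (26.9), Tnfrsf13b (25.5), Tnfrsf21 (21.7) and Tnfrsf1a (21.2). The TNF receptors thus stood among the leading members in Wild type, while in replicates 4 and 5 the mean per kilobase was 4.01 for Tnfrsf1b and 0.102 for Tnfrsf1a. In the same 2 libraries Tnf was at 17.3 per kilobase, against 6.68 in Wild type, so that the ligand exceeded both of its receptors there. In replicate 6 the values per kilobase were 14.3 for Tnf, 27.4 for Tnfrsf1b and 21.3 for Tnfrsf1a.

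The genes that carry the signal from these receptors were taken from a list of 27, all of which passed the filter. With all libraries 0 were called by limma, and at an unadjusted p under 0.05 there were 1 lower and 6 higher, beside 13.8% and 11.6% of all genes. For 7 genes every Mcemp1-/- library was above every Wild type library, and for 0 it was below, beside 14.8% of all genes in each direction. Without replicate 6 there were 6 called higher and 3 lower, beside 19.5% and 22.5% of all genes. The median log2 fold change was 0.07, against -0.01 for all genes. Tab2 and Map3k7, which form the TAK1 kinase complex with the TAB proteins, had log2 fold changes of 0.29 ± 0.09 and 0.48 ± 0.15, and the death kinases Ripk3 and Map3k5 had 0.53 ± 0.16 and 0.47 ± 0.15, with limma adjusted p-values of 0.15 to 0.16. Map3k7 had 402, 403 and 284 normalized counts in Mcemp1-/-, against 251, 257 and 261 in Wild type, and Ripk3 had 147, 144 and 97.8, against 84.6, 90.4 and 90.1. In both, replicate 6 was nearer to Wild type than to replicates 4 and 5. On the lower side, Bid, which links caspase-8 to mitochondria, had 39.4, 34.6 and 54.3 in Mcemp1-/-, against 64.3, 58.2 and 52.5 in Wild type, with a log2 fold change of -0.46 ± 0.18 (limma adjusted p 0.18). Tnip1, Map3k14 and Tank followed, at -0.36 ± 0.25, -0.26 ± 0.20 and -0.26 ± 0.21, and none of these was called with all libraries.

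Of 9 further genes of the superfamily and its adaptors whose symbols fall outside the rule, 4 had a value. These were Eda2r, Ngfr, Relt and the adaptor gene Edaradd, of which 3 were tested and 0 were called with or without replicate 6. Relt, the best expressed, had 37.6, 38.6 and 33.7 normalized counts in Mcemp1-/-, against 36.7, 33.3 and 39.1 in Wild type. Ligand and receptor pairs could therefore be read together for TNF, lymphotoxin beta, LIGHT, TRAIL, TWEAK, APRIL, BAFF and the OX40, CD30 and 4-1BB ligands. They could not be read together for FAS, CD40 and CD27, whose ligands were not analysed here. For TWEAK the receptor Tnfrsf12a had 3.68, 5.95 and 2.38 in Mcemp1-/-, against 4.44, 2.26 and 2.34 in Wild type, which overlapped.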

How the data were processed

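RNA of 6 PCMC cultures was made into libraries with the KAPA mRNA HyperPrep kit, sequenced on an Illumina NextSeq and processed by the authors in Partek Flow. The build, per the submitters' notes, is mm10. What the authors deposited is a table of normalized counts, near CPM in scale (totals 932999 to 989051). The sources used here give no aligner, annotation, strand setting or normalization. Whole reads could not be recovered (39.7% to 50.5% of low values were whole multiples of the lowest value, within 0.01), so depth is unknown and no count model was run.

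limma 3.58.1 (R 4.3.3, with a trend) was applied to log2(value + 0.479) for the 13413 of 17320 genes whose mean was at least 1, two-sided, with Benjamini-Hochberg adjustment over all of them. The script was tested on simulated data. With 3 libraries against 3, an exact permutation test cannot go below p = 0.1 and was not used.

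Given library by library were members with a mean of at least 10, members with a mean of at least 1 whose groups do not overlap, Tnf, Tnfrsf1a and Tnfrsf1b. From the signaling list came up to 4 genes in each direction with the smallest p. Ltb, Fas, Tnfrsf23, Tnfrsf12a and Relt were added after their values were seen. The members and lists were chosen with earlier results of these data known. Exon lengths and shared 50-base stretches are from GENCODE vM21, which has 97.4% of the gene starts. Without a strand setting, members that overlap a gene on the opposite strand (among those named, Cd27, Ripk1, Tnfrsf9, Tnfrsf13b, Tnfrsf18, Tnfrsf22, Tnfrsf23, Tnfrsf26, Tnfsf9, Tnfsf12, Tnfsf13, Tnfsf13b, Traf2, Traf3, Traf5 and Traf7) cannot be told apart from it. The alternatives were other pseudocounts (0.1 and 2), a mean of at least 5 or no filter, trimmed mean of M values (TMM) scaling, which moved the libraries by factors of 0.996 to 1.002, no trend, sex read from Xist as a second term, and each library left out. Leaving out replicates 4 and 5 together was added after seeing the data.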

Additional observations from a re-analysis of the deposited data

How the results depend on the processing

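As each library was left out, the members called lower ranged over 0 to 3 ligands, 0 to 10 receptors and 0 to 2 adaptors, those called higher over 0 to 5 ligands and 0 to 1 adaptors, and the signaling list gave 0 to 3 lower and 0 to 6 higher. In each, the upper value came without Mcemp1-/- replicate 6. Over all genes, 8 were called lower (5 with a pseudocount of 2, and 0 to 3019 as each library was left out) and 2 higher (6 with sex as a second term, and 0 to 2621). Under the 7 other settings, all 178 values of the 26 members given library by library kept direction and stayed short of the threshold, with a lowest adjusted p of 0.073 (limma). Leaving out libraries, including Mcemp1-/- replicates 4 and 5 together, turned the sign of the log2 fold change of 8 of these 26 members. Ripk1 ranged from -0.055 to 0.14, Tnfrsf21 from -0.09 to 0.017, Tradd from -0.22 to 0.24, Ltbr from -0.66 to 0.041, Tnfrsf14 from -1.54 to 0.093, Tnfrsf1a from -6.24 to 0.012, Tnfsf14 from -0.49 to 0.11 and Traf3 from -0.32 to 0.019. Of the other 11 tested members, 8 turned too: Ltb ranged from -2.85 to 0.20, Fas from -2.01 to 0.65, Tnfrsf23 from -3.49 to 0.28, Tnfsf13b from -1.40 to 0.055, Tnfrsf12a from -0.23 to 0.62, Cd40 from -0.33 to 0.20, Tnfrsf18 from -0.46 to 0.0060 and Traf1 from -0.018 to 0.28. The positive end of Ltbr, Tnfrsf14, Tnfrsf1a, Tnfsf14, Traf3, Ltb, Fas, Tnfrsf23, Tnfsf13b and Cd40 is replicate 6 alone against Wild type, where it is assumed to vary like Wild type. The median of the receptors was -0.73 with no filter, -1.37 without replicate 6 and -0.05 for replicate 6 alone against Wild type. No paired analysis was possible because the labels match no Mcemp1-/- library to a Wild type library. Values near the lowest value of a library would rest on few reads if that lowest value were 1 read. In multiples of it, Tnfrsf1a stood at 6 in replicate 4 and at 3 in replicate 5.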
